A study of Mus musculus with 3 samples.

Results

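The mRNAs of 10 genes that remove the cap or the poly(A) tail of cytoplasmic mRNA, or degrade the body of the mRNA from its 5′ end, were followed in an RNA immunoprecipitation sequencing (RIP-seq) experiment on the m6A reader YTHDF2. The genes were *Dcp2*, *Dcp1a*, *Dcp1b*, *Edc3*, *Edc4*, *Ddx6*, *Patl1*, *Xrn1*, *Pan2* and *Pan3*. Their rows were taken by gene name, and each was found once in a table of raw read counts over 49997 genes. The genes were chosen with earlier results of these data known. All 10 passed the filter on low counts, which left 19601 genes for testing. The cells were E14 mouse embryonic stem cells (ESCs), and every library came from cells given doxycycline (Dox) for 24 h. In the cell system described by the study, ESCs carry a Dox-inducible *Dux* transgene and a tdTomato reporter driven by the MERVL promoter, and Dox shifts part of the culture to a state like that of the 2-cell (2C) embryo. There were 3 libraries, of which 1 was the input and 2 were RNA recovered with an antibody to YTHDF2 (IP replicates 1 and 2). Below, "before IP" stands for the input and "after IP" for IP replicates 1 and 2, given in that order. Cells without Dox and an IP with a control antibody were not analysed here.

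Total counts lay between 35259827 and 36986994 per library. All 8 ESC markers examined were present in the input, from 154 TPM for *Tfcp2l1* to 5990 TPM for *Dppa5a*, where TPM is the count per base of the merged exons of a gene, scaled so that each library has the same sum. Their sum was 9830 TPM in the input and lower after IP, at 8440 and 8410 TPM. The 5 markers of the 2C-like state lay between 25.5 and 897 TPM in the input and summed to 1660 TPM there, against 2850 and 2840 TPM after IP. Of 13 markers of fibroblasts, the germ layers and trophectoderm, 8 were below 1 TPM in the input and *Elf5* was at 0, and the highest was *Thy1* at 32.9 TPM. Their sum was 45.9 TPM before IP and 49.6 and 44.7 TPM after it. In bulk libraries such as these, fewer cells that hold an mRNA and less of it per cell cannot be told apart. Nothing states that the IP libraries came from separate cultures, so the p-values measure only the spread between these 2 libraries, which may be technical, and the spread between inputs was not measured.

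As background, an mRNA in the cytoplasm usually loses its poly(A) tail first. PAN2-PAN3 trims long tails and the CCR4-NOT complex shortens them further, after which the LSM1-7 ring and PATL1 bind the shortened end and help to bring in the decapping enzyme. DCP2 hydrolyses the cap with DCP1 as its activator, while EDC3, EDC4 and the RNA helicase DDX6 assemble and stimulate the complex, and XRN1 then digests the uncapped body in the 5′ to 3′ direction. Many of these proteins gather in processing bodies (P-bodies). YTHDF2 is best known for linking m6A-marked mRNAs to CCR4-NOT. The comparison here asked whether the mRNAs that encode the enzymes were themselves recovered with YTHDF2.

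To show what the compared mRNAs look like, short stretches around GGACT, a common form of the m6A consensus, are given for 3 members that were higher and 3 that were lower in IP than in input. The motif was searched on the mRNA strand of 1 RefSeq Select transcript per gene (GRCm38.p6, the assembly of mm10). At least 1 match was present in 91.3% of the 15011 such transcripts of tested genes, and in all 10 members, so its presence does not set the members apart. Each line gives 25 bases, 5′ to 3′, with the motif in capitals, taken from RefSeq sequence at the match nearest to the stop codon. All are on the plus strand, and each lies within a single exon.
Ddx6 (chr9:44637080-44637104, 3′UTR): gccggaaggtGGACTagtgatggca
Dcp1a (chr14:30525928-30525952, 3′UTR): ggctccgtccGGACTgtccacagct
Pan3 (chr5:147546749-147546773, 3′UTR): caaaggaacaGGACTtttgataaaa
Patl1 (chr19:11943696-11943720, 3′UTR): gtataccaaaGGACTccttcccgct
Xrn1 (chr9:96053135-96053159, 3′UTR): tcactgtgtgGGACTacatagtgag
Pan2 (chr10:128320392-128320416, coding exon 25 of 26): gccgaaagatGGACTggaaggtgcc
The A of the motif lay 611 bases past the stop codon in *Ddx6*, 374 bases past it in *Pan3*, 356 bases past it in *Patl1* and 338 bases past it in *Xrn1*. It lay farther away, at 2634 bases, in *Dcp1a*, and 73 bases before the end of the stop codon in *Pan2*. Such a match is a run of letters in the reference and does not say that the base was methylated, which the counts do not measure.

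The decay mRNAs split in both directions, and most shifts were modest. Compared with the input, *Ddx6*, *Dcp1a*, *Dcp2*, *Pan3* and *Edc3* were between 1.31-fold and 1.60-fold higher in IP, *Pan2*, *Xrn1* and *Edc4* were between 1.24-fold and 1.69-fold lower, and *Patl1* was 2.56-fold lower. *Dcp1b* was not separable from the input, with a log2 fold change of 0.03 and a 95% interval from −0.30 to 0.35. Differences were tested with the quasi-likelihood test of edgeR, fitted over all 19601 genes with Benjamini-Hochberg adjustment, and a gene was called at an adjusted p-value under 0.05 together with a fold change over 2. By that rule 0 of the 10 members were enriched, where 15.0% of all genes tested were, and 1 of the 10 was depleted, where 13.0% of all genes were. No member was over 2-fold higher, so the count of enriched members was also 0 at an unadjusted p-value under 0.05 and by DESeq2. At the adjusted p-value alone, 5 members were higher in IP against 28.4% of all genes, and 4 were lower against 28.9% of all genes. The median log2 fold change was 0.21 over the members and 0.01 over all genes tested, and the interquartile range of all genes ran from −0.72 to 0.81. Of the 10 members, *Patl1* and *Edc4* lay outside that range.

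**Figure D1:**
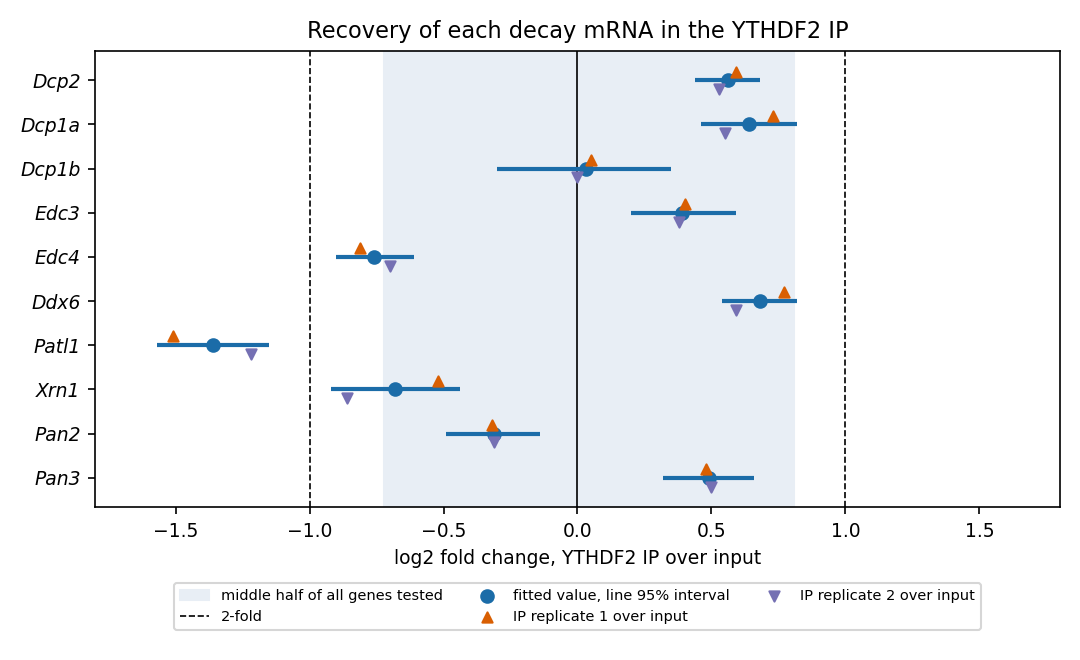
Log2 fold change of each decay mRNA, YTHDF2 IP over input, fitted over both IP libraries (circles, with 95% intervals as lines) and for each IP library alone (triangles). The shaded band is the interquartile range of all genes tested and the dashed lines mark 2-fold. Patl1 is the member whose interval, from −1.57 to −1.15, lies wholly beyond 2-fold, and Dcp1b is the one whose interval spans 0.

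The calls over all genes numbered 2936 enriched and 2543 depleted, so 53.6% of them were enrichments. Scaling to TPM raised the median of all genes by 0.151 on the log2 scale and made 64.0% of the calls enrichments, with 3558 enriched and 2003 depleted genes. TPM values below therefore stand slightly higher in IP than the fitted fold changes, which follow TMM scaling (a trimmed mean of the log ratios between libraries). When every gene was given a dispersion of 0.1, larger than the one the IP libraries gave, none of the 10 members passed the adjusted p-value, and the lowest was that of *Patl1* at 0.0658 (over all alternatives with a test, its adjusted p-values ran from 1.66e-39 to 0.0658, and at this dispersion its unadjusted p-value of 0.0121 was the only 1 of the 10 under 0.05).

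Among the subunits of the decapping enzyme, both *Dcp2* and *Dcp1a* were higher in IP, whereas *Dcp1b* was not. *Dcp2* (chr18:44380500-44424969), which encodes the catalytic subunit, had 7144 input counts, against 11001 and 10659 in the first and second IP library. Its level was 47.5 TPM before and 79.9 and 75.9 TPM after IP, the highest of the members in IP per length of the merged exons. It was 1.47-fold higher in IP, at a log2 fold change of 0.56 ± 0.0589 (SE; adjusted p 1.45e-10 by edgeR). *Dcp2* has one of the lowest GC contents of the members (42.8%), and over all genes the log2 fold change rose with GC. After the trend on GC was removed, the log2 fold change of *Dcp2* was 1.09 and it passed the threshold as enriched (adjusted p 1.19e-17, within a range over alternatives of 5e-20 to 0.544).

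*Dcp1a* (chr14:30479486-30527056) encodes an activator of DCP2. The input held 1782 reads of it and the IP libraries held 3012 and 2694, or 18 TPM against 33.2 and 29.1 TPM. Both IP libraries were above the input, at a log2 fold change of 0.64 ± 0.0876 (SE; adjusted p 6.83e-08 by edgeR). *Dcp1b* (chr6:119175253-119221614), its paralog, was counted 457, 483 and 473 times, the fewest reads of any member. At 6.76 TPM before and 7.80 and 7.49 TPM after IP, it did not pass the test (adjusted p 0.91 by edgeR), and the interval of the difference ran between 1.23-fold lower and 1.28-fold higher. Within a library the ratio of 2 genes needs no scaling between libraries. The input held 3.90 reads of *Dcp1a* per read of *Dcp1b*, while IP replicate 1 held 6.24 and IP replicate 2 held 5.70. Reads of *Dcp2* per read of *Dcp1a* were close in all libraries, at 4.01 before and 3.65 and 3.96 after IP.

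The 4 decapping enhancers diverged, with *Edc3* and *Ddx6* higher in IP and *Edc4* and *Patl1* lower. *Ddx6* (chr9:44602983-44640731), the helicase that links CCR4-NOT to decapping and translational repression, rose from 5397 counts to 9373 in one IP library and 8406 in the other. Per length this was 37.9 TPM in the input against 71.9 and 63.2 TPM in IP. Its log2 fold change of 0.68 ± 0.0676 (SE) was the highest of the 10 and placed it at percentile 71.7 of all genes tested (adjusted p 1.91e-10 by edgeR). *Dcp1a* was close behind at 0.64 ± 0.0876 (SE). After removal of the GC trend *Dcp2*, at 1.09, stood above *Ddx6*, at 0.88.

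*Edc3* (chr9:57708540-57750163) encodes a scaffold that binds DCP2 and DDX6. Its 1472 input counts compared with 1988 and 1989 after IP, equal to 24.3, 35.9 and 35.2 TPM in that order. The IP libraries were nearly identical to each other and above the input, at a log2 fold change of 0.39 ± 0.0951 (SE; adjusted p 0.000493 by edgeR). *Edc4* (chr8:105880873-105893225) encodes the large scaffold that holds DCP1 and DCP2 together. Per length of the merged exons it was the most abundant member of the input, at 55.5 TPM from 4643 counts, and fell to 2704 and 2953 counts, or 35.3 and 37.7 TPM, after IP. Its log2 fold change of −0.76 ± 0.0719 (SE) had an adjusted p of 1.25e-11 by edgeR. Removal of the GC trend moved it to −1.02, past 2-fold (adjusted p 8.54e-15), and removal of a trend on exon density moved it to −0.33 (adjusted p 0.000156). Over all alternatives its adjusted p-values ran from 8.71e-24 to 0.361. *Edc3* and *Edc4*, which differed per length in the input by a ratio of 0.439, stood at ratios of 1.02 and 0.932 in the IP libraries.

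*Patl1* (chr19:11912399-11945096), which encodes the bridge between the LSM1-7 ring and decapping, was the single member past the threshold. The 2716 reads counted before IP fell to 972 in IP replicate 1 and to 1210 in IP replicate 2. Its level went from 36.4 TPM to 14.2 and 17.3 TPM. The fitted log2 fold change of −1.36 ± 0.103 (SE) stood at percentile 10.9 of all genes tested (adjusted p 1.57e-13 by edgeR). Its direction was the same in each IP library taken alone, with log2 ratios of −1.51 and −1.22. Before IP there were 1.99 reads of *Ddx6* for each read of *Patl1*, compared with 9.64 in IP replicate 1 and 6.95 in IP replicate 2. A stretch of 0.21% of the exonic bases of *Patl1* overlaps *Gm31092* on the opposite strand, which had 0 counts in every library.

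*Xrn1* (chr9:95954750-96057806), the exonuclease that degrades decapped mRNA, had the longest transcript of the members, at 10266 bases, and one of the lowest levels. Its 1699 input counts compared with 1212 and 969 after IP, which gave 7.71, 6.0 and 4.71 TPM. The IP libraries differed from each other more than for any other member, at log2 ratios over input of −0.52 and −0.86, though both were below it. The fitted value was −0.68 ± 0.117 (SE; adjusted p 9.05e-06 by edgeR). *Xrn1* has the lowest GC content of the members at 42.1%, and after removal of the GC trend its log2 fold change was −0.10 and the adjusted p was 0.503 (range over alternatives 5.39e-09 to 0.503). *Gm16794*, on the opposite strand, overlaps 1.53% of the exonic bases of *Xrn1* and had 31, 5 and 5 counts, and strand was not used in counting.

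**Figure D2:**
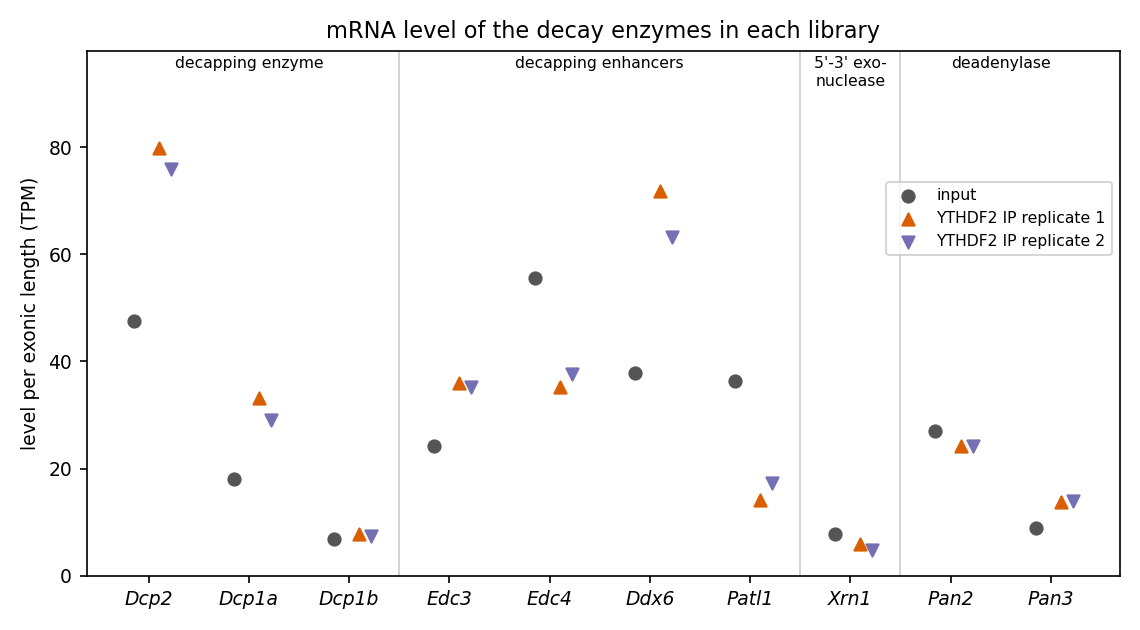
Level per length of the merged exons (TPM) of each decay mRNA in the input (circles), IP replicate 1 (upward triangles) and IP replicate 2 (downward triangles), grouped by the role of the protein. Dcp2 and Ddx6 are the highest in the IP libraries, at 63.2 to 79.9 TPM, while Edc4 is the highest in the input at 55.5 TPM.

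The 2 subunits of the PAN2-PAN3 deadenylase also went opposite ways. *Pan3* (chr5:147426208-147548501), which encodes the adaptor that binds poly(A) and recruits the nuclease, went from 1861 counts to 2652 and 2729 after IP, or from 8.87 to 13.8 and 13.9 TPM. Its log2 fold change of 0.49 ± 0.0838 (SE) had an adjusted p of 3.38e-06 by edgeR. *Pan2* (chr10:128303333-128321358), which encodes the catalytic subunit, went from 2449 counts to 2008 and 2041 after IP, or from 27.1 to 24.3 and 24.2 TPM. At a log2 fold change of −0.31 ± 0.0848 (SE), its adjusted p was 0.00161 by edgeR. That small difference was lost under TPM scaling, at −0.16 (adjusted p 0.103), and after removal of the trend on exon density, at −0.04 (adjusted p 0.706), with adjusted p-values between 6.86e-05 and 0.749 over all alternatives. The input held 0.760 reads of *Pan3* per read of *Pan2*, while the IP libraries held 1.32 and 1.34. Which of the pair stood higher in IP depended on the length used. Per length of the merged exons (5192 bases in *Pan2* and 12066 bases in *Pan3*) it was *Pan2*, as the TPM values show. Per kb of the RefSeq Select transcript (4450 and 5052 bases), scaled by library total as RPKM, *Pan3* was at 14.9 and 15.1 RPKM after IP and *Pan2* at 12.8 RPKM in both, whereas *Pan2* was the higher before IP, at 14.9 against 9.96 RPKM.

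**Figure D3:**
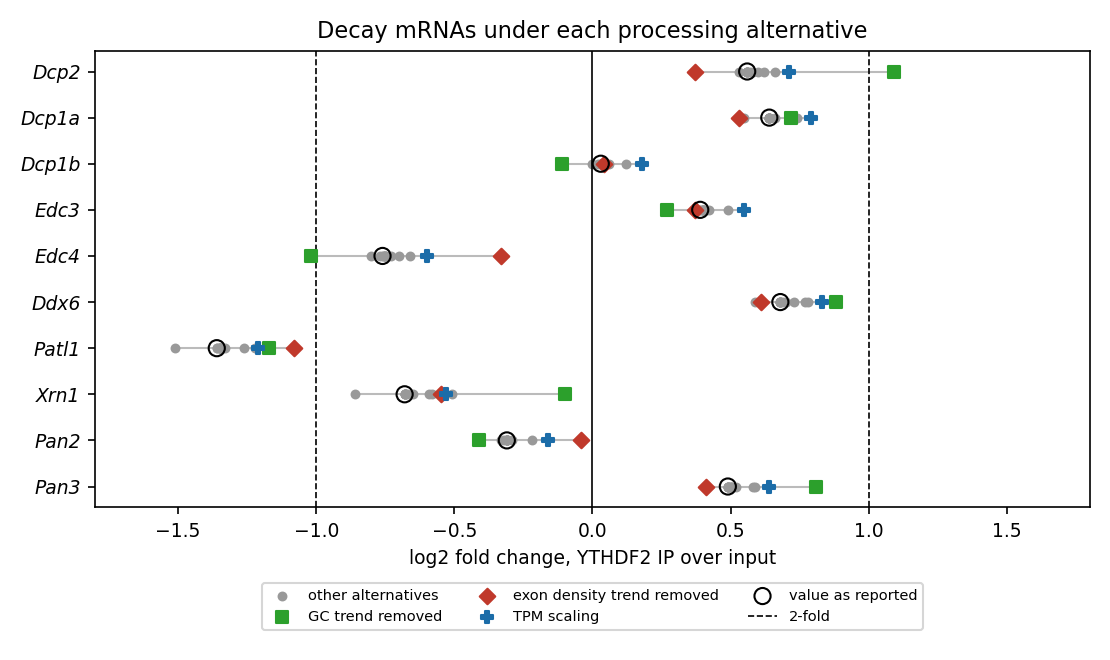
Log2 fold change of each decay mRNA as reported (open circles) and under 14 processing alternatives, with the 2-fold lines dashed. Patl1 stays between −1.51 and −1.08 throughout, Dcp2 and Edc4 cross 2-fold when the GC trend is removed, Xrn1 and Pan2 come close to 0 under removal of the GC and the exon density trend, respectively, and Dcp1b lies on either side of 0.

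Together the 10 mRNAs made up 0.0801% of the counts in the input (95% Wilson interval 0.0792 to 0.0810), 0.100% in IP replicate 1 (0.0994 to 0.102) and 0.0951% in IP replicate 2 (0.0941 to 0.0961). The intervals take in counting error alone and are too narrow where reads are not independent. Per length of the merged exons, the order of the members in IP was *Dcp2*, *Ddx6*, *Edc4*, *Edc3*, *Dcp1a*, *Pan2*, *Patl1*, *Pan3*, *Dcp1b* and *Xrn1*. The ranges of the IP libraries overlapped for *Edc4* and *Edc3* and for no other neighbours in that order, although *Patl1* at 14.2 to 17.3 TPM and *Pan3* at 13.8 to 13.9 TPM were close. That order changed with the length used. Per kb of the RefSeq Select transcript, *Ddx6* was above *Dcp2* in both IP libraries and *Pan3* was above *Pan2* and *Patl1*. In the input *Edc4* led by either length and *Patl1* ranked 4, and in IP *Patl1* ranked 7 by the merged exons and 8 by the transcript. Neighbours in the order of the single input could not be set against a spread.

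The members also differed in the structure of their mRNAs, which the choice of genes did not use. Of the 5 members that were higher in IP, all but *Pan3* had fewer exons per kb than the median transcript and most of their sequence in the last exon. In *Dcp2* the last of 11 exons held 85.7% of the transcript of 8643 bases, and it held 70.3% in *Ddx6*, 68.2% in *Dcp1a*, 59.9% in *Edc3* and 42.3% in *Pan3*. Of the 4 members that were lower, *Edc4* has 29 exons and *Pan2* has 26, with 11.6% and 14% of the transcript in the last exon. *Xrn1*, with 42 exons, and *Patl1*, with 19, had 51.6% and 41.8% there. Exons per kb of transcript ran from 1.27 to 3.76 in the members higher in IP and from 4.09 to 6.07 in those lower. The median over 15011 transcripts of tested genes was 3.39. How all tested genes divide at such a cut was not counted, and the correlation over them, given below, was weaker than over the members. *Dcp1b*, which did not pass the test, has 9 exons and 48.7% of its transcript in the last.

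**Figure D4:**
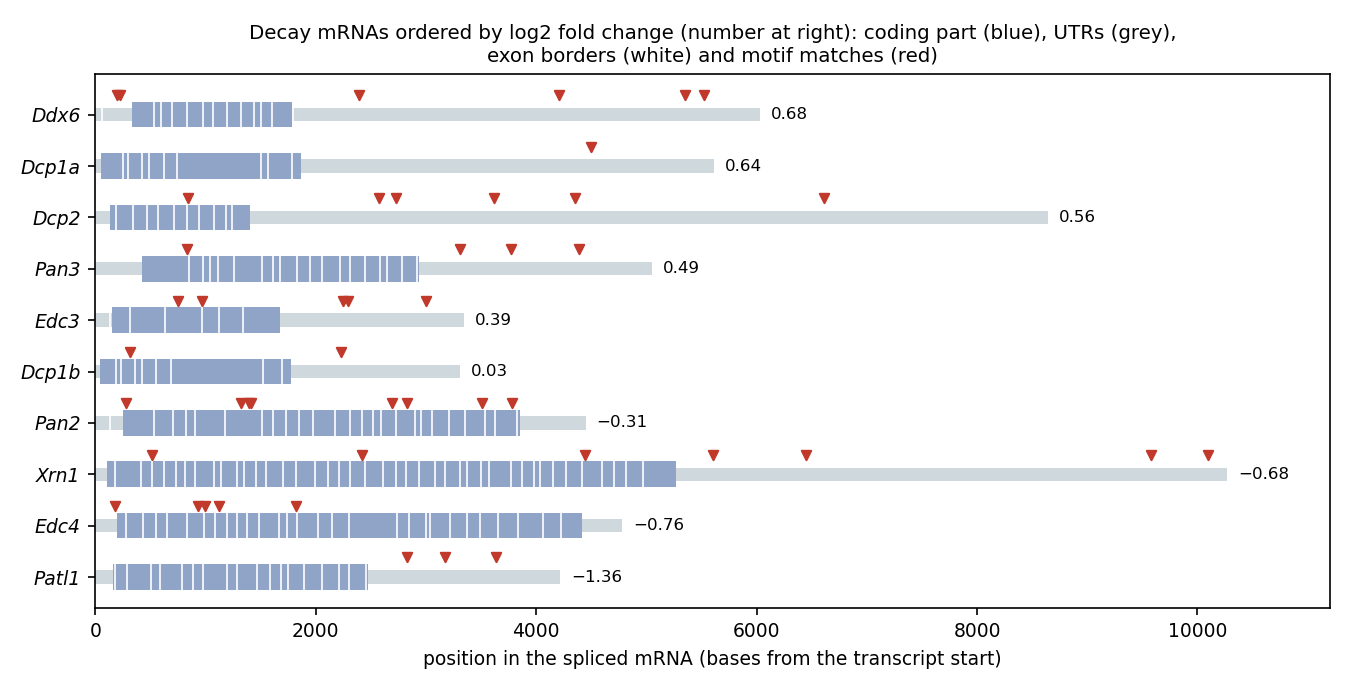
Spliced mRNAs of the 10 genes to scale, ordered from the highest log2 fold change in IP to the lowest (number at right), with the coding part, the UTRs, the exon borders and the matches to the motif described above. The 5 members at the top have 3′UTRs that lie almost wholly in the last exon, from 1668 bases in Edc3 to 7240 in Dcp2. Xrn1 and Patl1, which are lower in IP, have such 3′UTRs too, of 4997 and 1744 bases. Edc4 and Pan2, also lower in IP, have short 3′UTRs and their matches upstream of the last exon.

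Across the 10 members, the log2 fold change and the merged exons per kb of exonic sequence had a Spearman rho of −0.891, and across 19554 genes the same rho was −0.183. Per kb of the RefSeq Select transcript it was −0.806 over the members and −0.31 over 15011 transcripts. Exon density was singled out after 12 transcript features had been examined, of which the share of the transcript in its longest exon (0.794 over the members and 0.231 over all) and the coding length (−0.685 and −0.0811) also had a large rho over the members. The values of one plot share their libraries and scaling, and genes are not independent replicates, so these are descriptions. For the GC content of the exons the rho was −0.273 over the members and 0.314 over all genes, with opposite signs. When the trend on exon density was removed, the 5 members that were higher in IP stayed between 0.37 and 0.61, and *Patl1* stayed past 2-fold at −1.08, while *Edc4* and *Pan2*, among the most exon-dense members, came closer to 0 as given above.

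**Figure D5:**
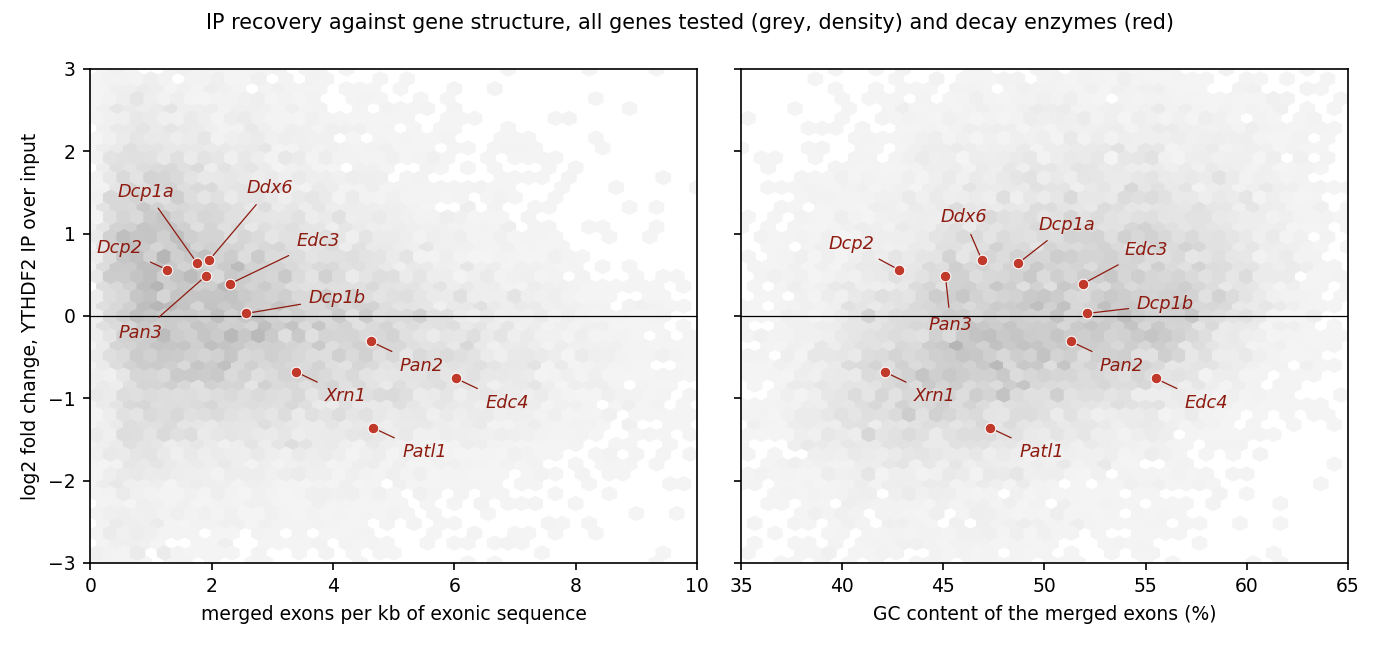
Log2 fold change in YTHDF2 IP over input against merged exons per kb (left) and GC content of the merged exons in percent (right), for all genes tested as grey density and for the 10 decay mRNAs as red points (genes beyond the axes are not drawn). On the left the members tend to lie lower as exons per kb rise from Dcp2 at 1.27 to Edc4 at 6.03. The highest log2 fold change is that of Ddx6 (1.96 exons per kb) and the lowest that of Patl1 (4.66). No such tendency is seen on the right.

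Motif matches were about as many in the members that were higher in IP as in those that were lower. The 10 transcripts held 47 matches, of which 20 lay in coding sequence, 24 in 3′UTRs and 3 in 5′UTRs. The 5 members higher in IP had 22 matches, 16 of them in the last exon, and the 4 members lower in IP had 23, of which 7 were in the last exon. These counts were not corrected for the sequence searched. The last exon held 42.3% to 85.7% of the transcript in the former and 11.6% to 51.6% in the latter. *Pan2* had the most, with 8 matches or 1.8 per kb, all in coding sequence, and *Dcp1a* had the fewest, with 1 match or 0.178 per kb, although it was higher in IP and *Pan2* was lower. The median over all transcripts was 1.07 per kb. Across the members the rho of GGACT density with the log2 fold change was −0.188, and across the transcripts of all tested genes it was 0.154. For the broader consensus DRACH (D for A, G or T, R for A or G, H for A, C or T) both signs were opposite. Its density had a rho of 0.515 over the members and −0.0672 over all.

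The other genes of the pathway were examined as a list of 26, chosen by role, with all 26 tested. Of these, 4 were enriched (15.0% of all genes tested were), 7 were depleted (13.0% of all genes tested were) and 15 were not called, and the median log2 fold change was −0.08. In the LSM1-7 ring, whose subunits act with PATL1, *Lsm1* rose in IP from 1218 counts to 2612 and 2429 (log2 fold change 1.01 ± 0.0948 SE) and *Lsm5* fell from 2033 counts to 866 and 964 (−1.19 ± 0.105). The other 5 subunits were not called, and their values lay on both sides of 0. *Lsm1* ranged from 0.84 to 1.24 and *Lsm5* from −1.25 to −0.43 over the alternatives. Without IP replicate 1 *Lsm1* was at 0.95, under 2-fold. With the exon density trend removed *Lsm1* was at 0.84 and *Lsm5* at −0.47, so both calls were lost. Both were also lost at the fixed dispersion, and that of *Lsm5* after removal of the GC trend, at −0.43.

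Among the cofactors of decapping and P-bodies, the paralogs *Pnrc1* and *Pnrc2* diverged. *Pnrc1*, whose product can draw decapping factors to the nucleolus, rose from 2218 counts to 7789 and 7060 after IP (log2 fold change 1.70 ± 0.0747 SE). *Pnrc2*, which encodes an adaptor between UPF1 and DCP1A in nonsense-mediated decay, fell from 1971 counts to 942 and 920 (−1.12 ± 0.104). The call of *Pnrc2* was lost under TPM scaling, at −0.97, after removal of the GC trend, at −0.61, and at the fixed dispersion, while its direction stayed. *Patl2*, the paralog of *Patl1* known for its role in oocytes, fell from 213 counts to 59 and 82 (−1.63 ± 0.311). Thus both *Patl* paralogs were depleted, *Patl2* from a much lower count.

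Of the enzymes that act on caps outside DCP2, *Dxo*, which removes incomplete caps, was enriched, going from 1167 counts to 3330 and 3345 (log2 fold change 1.48 ± 0.0861 SE). With the GC trend removed *Dxo* was at 0.86, under 2-fold, and its call was also lost at the fixed dispersion. *Dcps*, the scavenger of the cap left by decay from the 3′ end, was depleted, going from 3287 counts to 1521 and 1667 (−1.08 ± 0.0845). It was under 2-fold with total count scaling, at −0.99, with TPM scaling, at −0.93, and with the exon density trend removed, at −0.76, and its call was also lost at the fixed dispersion. *Nudt12*, which removes NAD caps, was also depleted, going from 359 counts to 136 and 228 (−1.02 ± 0.242). Its IP libraries disagreed in size, and without IP replicate 1 its value was −0.70, under 2-fold. After removal of the GC trend it was −0.35 (adjusted p 0.232, within a range over alternatives of 1.43e-05 to 0.232). The call of *Nudt12* was also lost with total count scaling, at −0.93, TPM scaling, at −0.87, no filter on low counts, at −1.0, and the fixed dispersion. *Xrn2*, the nuclear counterpart of *Xrn1*, fell from 4885 counts to 1654 and 1701 (−1.58 ± 0.0743). With the GC trend removed *Xrn2* was at −0.91, under 2-fold. *Xrn1* and *Xrn2* were thus both below the input.

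Among the factors that act on the poly(A) tail, *Parn*, a deadenylase active mainly on noncoding RNAs, fell from 1488 counts to 573 and 655 after IP (log2 fold change −1.32 ± 0.119 SE). With the exon density trend removed it was at −0.72, under 2-fold, and its call was also lost at the fixed dispersion. *Pabpn1*, the nuclear poly(A)-binding protein, was the most strongly recovered gene of the list, with 13074 counts before and 51932 and 51161 after IP (1.94 ± 0.0525). All 11 calls had adjusted p-values of at most 0.000542 by edgeR, and *Pnrc1*, *Patl2* and *Pabpn1* kept theirs under all 12 alternatives with a test, while the other 8 genes lost theirs under 1 to 5 of them. The 3 *Tnrc6* genes, whose products tie silencing complexes to both deadenylases, were not called, and *Tnrc6c* was just under the threshold at 1.99-fold higher.

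For comparison, the 12 subunits of CCR4-NOT, the deadenylase that YTHDF2 binds, had a median log2 fold change of −0.50 and a highest value of 0.39, with 0 enriched (also at an unadjusted p-value under 0.05 and by DESeq2) and 3 depleted, namely *Cnot1*, *Cnot6l* and *Cnot10*. The 13 genes of the RNA exosome, which degrades from the 3′ end, had a median of −0.32, with 3 enriched (*Exosc1*, *Exosc4* and *Exosc6*) and 1 depleted (*Exosc9*). The decapping, XRN1 and PAN2-PAN3 genes, at a median of 0.21 with 0 enriched and 1 depleted, held members on both sides of 0, as did both of these lists. The shares over all genes tested were 15.0% enriched and 13.0% depleted, and no difference between the lists was tested.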

How the data were processed

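The RIP-seq data comprised 1 input and 2 YTHDF2 IP libraries, grouped by sample title. Per the labels, total RNA extracted with Trizol was used for the IP, whereas the methods of the study describe a cleared lysate, from which anti-YTHDF2 recovered RNA on protein A and G beads. The deposited values were raw counts per gene, which the authors made from reads aligned to mm10 (HISAT2 2.2.1 and fastp 0.19.4 per the submitters' processing notes) with featureCounts 2.0.3 over RefSeq exons, per the file headers. Mates of a pair were counted singly and strand was not used. Even numbers made up between 61.4% and 64.7% of low counts. The exonic length column of the deposited table, of unit other than counts, was used for TPM. There were 0 columns of other samples and 0 rows without a gene name.

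The test used edgeR 4.0.16 in R 4.3.3 (filterByExpr, TMM, glmQLFit with the robust option and glmQLFTest) and Benjamini-Hochberg adjustment. The 1 residual degree of freedom came from the IP libraries alone, with a coefficient of variation of 7.33% between them. Called genes passed both an adjusted p-value of 0.05 and a 2-fold difference. Single-library log2 ratios were taken after adding 0.5 to each count. Alternatives were RLE, total count and TPM scaling, DESeq2 1.42.0, no filter, a minimum of 50 counts, a fixed dispersion of 0.1, halved counts, omission of mitochondrial genes, removal of loess trends (span 0.3) on GC, length or exon density, and leaving out each IP library. Transcript structure came from RefSeq of GRCm38.p6, in which all 49997 symbols were found and all 10 members had the same start and end. Coordinates are 1-based. Members and lists were chosen with earlier results of these data known. All members were named, with every called gene of the list of 26 and *Tnrc6c*, chosen after its value was seen. The called CCR4-NOT and exosome genes were also named after their values were seen.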

Additional observations from a re-analysis of the deposited data

How the results depend on the processing

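The single input and the 2 IP libraries limit the precision of every value. No paired analysis was possible because only 1 input stands against the 2 IP libraries. A fixed dispersion of 0.1 left 1577 enriched and 1531 depleted genes and 0 depleted decay members. Removal of the GC trend gave 1 enriched member (*Dcp2*) and 2 depleted members (*Patl1* and *Edc4*), and turned *Dcp1b*, which was not called, to −0.11. The median of the members was 0.31 under total count scaling, 0.36 under TPM scaling and 0.08 after removal of the GC trend. It ranged from 0.19 to 0.23 when either IP library was left out, a setting that gives values with no test and hence no counts of calls. Elsewhere both member counts were the same as reported, and *Patl1* was called in 11 of the 12 alternatives with a test. The causes of these shifts were not tested.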
